A study of Mus musculus with 6 samples.

Results

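The 10 Slc30a genes, Slc30a1 to Slc30a10, encode the ZnT family of zinc transporters, and their transcripts were measured in GLUTag cells, a murine enteroendocrine cell line that secretes the incretin hormone GLP-1. The members are the genes with these symbols, a rule that takes in no measured value, and all 10 were found among the 54281 genes of the count table. The 6 libraries were from wells of 1 untreated condition, with 1 g/L glucose and 10% FBS for 48 h. Of these, 3 wells were on plate 1 at passage 23 and 3 on plate 2 at passage 27, and the effects of plate and of passage cannot be told apart. The wells come from a pair of cultures of a single tumour-derived line, so that p-values between plates measure only the spread between wells, which may be technical. A kit that reads the 3′ end of each polyadenylated transcript was used, so counts were not corrected for transcript length. Levels of different genes are set side by side on that basis. Other properties of a gene that may change its count, such as GC content, were not corrected for here. Levels are given as counts per M counts of the library (CPM).

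ZnT proteins move zinc out of the cytosol, either across the plasma membrane or into organelles and secretory vesicles, and the Slc39a (ZIP) family moves it the other way. Free zinc is also held by metallothioneins, and the transcription factor Mtf1 senses zinc and switches on metallothionein genes and Slc30a1. In endocrine cells zinc is loaded into hormone granules, the best known case being Slc30a8 in the insulin granules of pancreatic β-cells.

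The total count per library lay between 21399987 and 36488198, and with 0 counts the true number may be as high as 3, which is 0.0822 to 0.140 CPM depending on the library. The columns of plate 2 could not be matched to replicate numbers, and each of these libraries is called here by its total count as lowest, middle or highest. All 10 enteroendocrine markers, among them Gcg, had over 3 counts in every library. Of 3 β-cell genes none did, and Ins1 and Ins2 were at 0 in all 6. The 3 summed to 0.140 to 0.583 CPM on plate 1 and 0.0548 to 0.291 CPM on plate 2. The library of plate 2 with the middle total stood apart. For the 8658 genes that averaged 10 CPM or more, it was more than 2-fold below the mean of the other libraries of plate 2 for 656 genes and more than 2-fold above it for 5. Where leaving it out turned a direction or a call or moved a member's plate difference by over 1.5 times, the value without it is given too. Such values were not taken for coefficients of variation or for r between members.

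A wide range of levels separated the members. Of the 10 genes, 8 reached 1 CPM in each of the 6 libraries, and the mean of 6 was 10 CPM or more. Slc30a4 had the highest mean, 39.0 ± 4.20 CPM (SD, n = 6 libraries), and Slc30a2 the lowest, 0.0875 ± 0.10 CPM (SD, n = 6), or 0.0551 CPM without the library of plate 2 with the lowest total. The members are described below by the place where their proteins are known to act.

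**Figure D1:**
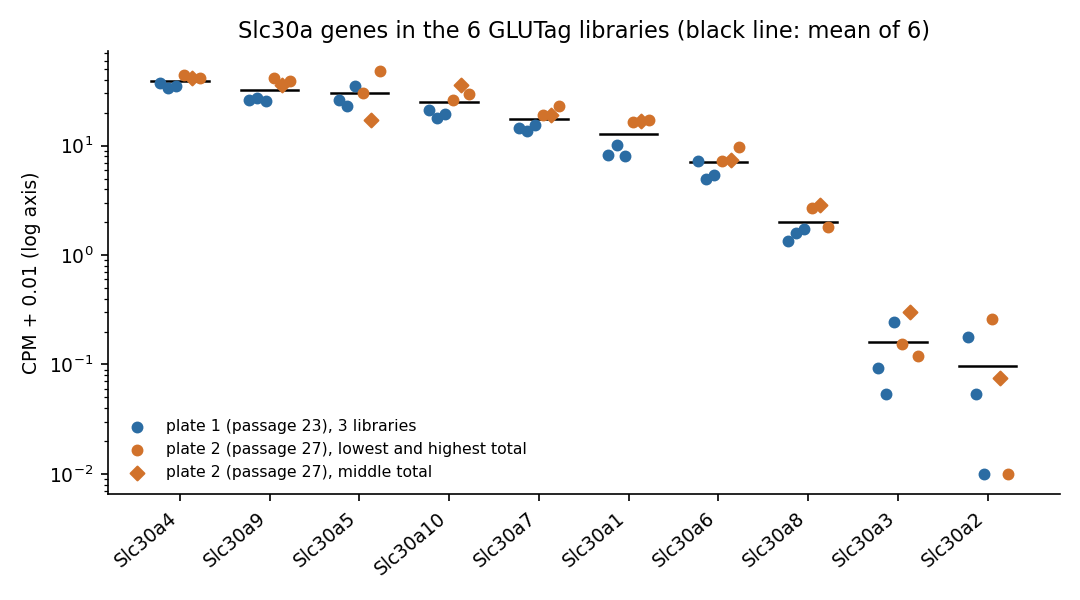
Level of each Slc30a gene in each of the 6 libraries, in CPM with an offset of 0.01 on a log axis, in order of the mean (black lines). Blue points are plate 1, orange points plate 2, and the diamond is the library of plate 2 with the middle total. The genes from Slc30a4 to Slc30a6 have means between 39.0 and 7.01 CPM, Slc30a8 lies at 2.00 CPM, and Slc30a3 and Slc30a2 lie near the floor of 3 counts.

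At the plasma membrane, Slc30a1 is the exporter found in most cell types. The gene (ENSMUSG00000037434, chromosome 1 of GRCm38, 191906767 to 191913247, plus strand, 2 exons) had 8.25, 10.1 and 8.04 CPM in replicates 1, 2 and 3 of plate 1. On plate 2 it had 16.5, 16.7 and 17.2 CPM in the libraries with the lowest, middle and highest total. The plates did not overlap for Slc30a1, and every library of plate 2 was above every library of plate 1. Over all 6 libraries the mean was 12.8 ± 4.44 CPM (SD, n = 6), from 172 to 629 counts per library.

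Slc30a10, the other member at the cell surface, is best known as an exporter of manganese. The gene (ENSMUSG00000026614, chromosome 1, 185454848 to 185468762, plus strand, 4 exons) had 21.4, 17.9 and 19.6 CPM on plate 1, and 26.1, 35.8 and 29.8 CPM on plate 2. Again the plates did not overlap, and the library with the middle total was the highest. The mean was 25.1 ± 6.83 CPM (SD, n = 6), above that of Slc30a1 in all 6 libraries.

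The regions just before both genes are shown because Slc30a1 is a known target of Mtf1, whose binding site, the metal response element, has the core TGCACNC or TGCGCNC. Both cores were searched on both strands in the 250 bases before the start of each RefSeq transcript, on GRCm38.p6, with overlapping matches counted. Of 32851 such windows, 21.4% held at least 1 match and 1.26% at least 3. Capitals mark the matches, and each sequence reads 5′ to 3′ on the plus strand and ends at the base before the GENCODE gene. For Slc30a1 that is 236 of the 250 bases, since its RefSeq start lies within the GENCODE gene, and the remaining bases are not printed.
Slc30a1, chr1:191906531-191906766: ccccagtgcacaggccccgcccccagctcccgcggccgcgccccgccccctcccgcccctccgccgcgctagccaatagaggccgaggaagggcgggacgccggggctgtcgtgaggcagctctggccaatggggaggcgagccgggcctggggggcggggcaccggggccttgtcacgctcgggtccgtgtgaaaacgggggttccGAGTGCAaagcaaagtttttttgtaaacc
Slc30a10, chr1:185454598-185454847: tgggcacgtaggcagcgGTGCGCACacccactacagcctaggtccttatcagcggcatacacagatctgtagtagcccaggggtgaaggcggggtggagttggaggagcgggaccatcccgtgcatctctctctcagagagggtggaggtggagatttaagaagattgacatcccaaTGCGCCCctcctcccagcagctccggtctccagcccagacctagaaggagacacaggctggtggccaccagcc
For Slc30a1 the window held 1 match, on the opposite strand and 43 bases before the RefSeq start, from which all distances are counted. For Slc30a10 it held 3, of which those 233 and 232 bases before the start overlap on opposite strands and the other lies 73 bases before it. The copy of RefSeq promoters used here held such a window for 9 of the 10 members (not for Slc30a8). There were 2 matches each for Slc30a4 and Slc30a2, 1 each for Slc30a5 and for 1 of the 2 starts of Slc30a3, and none for Slc30a6, Slc30a7 and Slc30a9. By the same search Mt2 had 3 matches and Mt1 had 1. A match of these letters is not a measured binding site.

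In the early secretory pathway, Slc30a5 and Slc30a6 act as a heterodimer and Slc30a7 as a homodimer, and they supply zinc to enzymes that pass through the Golgi. Slc30a5 (ENSMUSG00000021629, chromosome 13, 100802648 to 100833427, minus strand, 16 exons) had 26.1, 22.9 and 34.9 CPM on plate 1, and 30.6, 17.2 and 48.2 CPM on plate 2. The plates overlapped, and both the lowest and the highest value of all 6 libraries were on plate 2. The mean was 30.0 ± 10.8 CPM (SD, n = 6). The coefficient of variation of Slc30a5 was 36.0% over all 6 libraries, the largest of the 8 members that reached 1 CPM throughout. That of Slc30a1 was close, at 34.7%, and the rank depends on the library of plate 2 with the middle total. The counts of Slc30a5 were not whole numbers (519.235 in replicate 2 of plate 1), so they are estimates. Counts are sums per gene, and reads divided only among transcripts of Slc30a5 would add up to whole numbers. Some reads were therefore shared with a transcript outside the gene, which was not identified.

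Slc30a6 (ENSMUSG00000024069, chromosome 17, 74395608 to 74424221, plus strand, 14 exons) had 7.25, 4.95 and 5.37 CPM on plate 1, and 7.30, 7.44 and 9.76 CPM on plate 2. The plates were separated by only 0.0479 CPM, the gap between replicate 1 of plate 1 and the library of plate 2 with the lowest total. Although the 2 proteins work as a pair, their transcripts were not at one level. Slc30a5 was above Slc30a6 in 6 of 6 libraries, with a mean log2 ratio of CPM + 1 of 1.91 ± 0.47 (SD, n = 6). This log2 ratio ranged from 1.11, in the library of plate 2 with the middle total, to 2.49, and its mean without that library was 2.07.

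Slc30a7 (ENSMUSG00000054414, chromosome 3, 115938973 to 116007406, minus strand, 11 exons) had 14.6, 13.6 and 15.5 CPM on plate 1, and 19.1, 19.2 and 23.0 CPM on plate 2. The plates did not overlap. Its share of the summed CPM of the 10 members was the steadiest of the 6 members with a mean of 10 CPM or more, from 10.2% to 10.9% of the family total. By contrast, the share of Slc30a5 ran from 9.76% to 23.8%. The 9.76% was in the library of plate 2 with the middle total, and the next lowest share of Slc30a5 was 16.2%.

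In endosomes and lysosomes, Slc30a4 is the transporter whose loss gives the lethal milk mouse, in which milk lacks zinc. Slc30a4 (ENSMUSG00000005802, chromosome 2, 122681233 to 122702663, minus strand, 7 exons) had 37.7, 33.6 and 35.2 CPM on plate 1, and 44.4, 41.2 and 41.9 CPM on plate 2. It had the lowest coefficient of variation of the 10 members, 10.8%, and the plates did not overlap in CPM. Its mean was higher than that of 66.4% of the 12360 genes that reached 1 CPM in all 6 libraries.

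In mitochondria, Slc30a9 exports zinc from the matrix, and the protein was first described as a nuclear coactivator. Slc30a9 (ENSMUSG00000029221, chromosome 5, 67306955 to 67358443, plus strand, 18 exons) had 26.1, 27.2 and 25.7 CPM on plate 1, and 41.2, 35.6 and 38.9 CPM on plate 2. All libraries of plate 2 were above those of plate 1. The mean of Slc30a9 was 32.4 ± 6.94 CPM (SD, n = 6).

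Among the members that load secretory vesicles, Slc30a8 is the transporter of β-cell granules. Slc30a8 (ENSMUSG00000022315, chromosome 15, 52295553 to 52335798, plus strand, 8 exons) had 1.33, 1.59 and 1.73 CPM on plate 1, from 32, 36 and 37 counts. On plate 2 it had 2.67, 2.85 and 1.81 CPM, from 75, 88 and 66 counts. Slc30a8 was thus detected in all 6 libraries at a low level, with a mean of 2.00 ± 0.614 CPM (SD, n = 6). This mean was higher than that of 2.49% of the 12360 genes that reached 1 CPM in all 6 libraries, and Slc30a8 made up 0.858% to 1.61% of the summed CPM of the family. In a bulk library, a low level in every cell and a higher level in a few cells cannot be told apart.

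Slc30a3, the transporter of zinc-rich synaptic vesicles (ENSMUSG00000029151, chromosome 5, 31086106 to 31108237, minus strand), had 2, 1 and 5 counts on plate 1 and 4, 9 and 4 counts on plate 2. Slc30a2, which loads vesicles of the mammary gland and the exocrine pancreas (ENSMUSG00000028836, chromosome 4, 134343181 to 134354484, plus strand), had 4, 1 and 0 counts on plate 1 and 7, 2 and 0 counts on plate 2. Neither gene was above 3 counts in every library, and no difference between them or between plates was detectable at this depth. Of the 3 vesicle members, only Slc30a8 had a level above that limit in all 6 libraries.

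The counting could mix a gene with a partner that overlaps it on the other strand, since the strand setting is not given in the sources used here. An annotated gene lies opposite Slc30a1, Slc30a3, Slc30a4, Slc30a7 or Slc30a10, but none of them covers the 3′ end of the longest coding transcript of a member. Slc30a1, Slc30a3 and Slc30a4 have 2, 4 and 2 annotated 3′ ends of coding transcripts, and the other ends were not checked. The most counted was Gm2061 opposite Slc30a10, with 12 to 40 counts in a library, where Slc30a10 itself had from 406 to 1107. No gene shared 100 or more stretches of 31 bases with a member, a limit that does not exclude less sharing, as for Slc30a5 with its counts that are not whole.

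The order of the means was Slc30a4, Slc30a9, Slc30a5, Slc30a10, Slc30a7, Slc30a1, Slc30a6, Slc30a8, Slc30a3 and Slc30a2. To ask which neighbours in this order differ beyond their spread, the log2 ratio of CPM + 1 was taken within each library. The order was read from the same values, so this is a description without a test. For 6 of the 9 pairs of neighbours the higher gene led in all 6 libraries, and for 3 pairs the sign changed between libraries.

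Slc30a4 led Slc30a9 in 6 of 6 libraries, with log2 ratios from 0.11 to 0.51. Slc30a9 and Slc30a5 did not differ beyond their spread, since Slc30a9 was the higher in 3 libraries and the lower in the other 3, with log2 ratios from −0.43 to 1.01. Without the library of plate 2 with the middle total their order turned, to means of 32.5 CPM for Slc30a5 and 31.8 CPM for Slc30a9. Slc30a5 led Slc30a10 in 5 of 6 libraries, the exception being the library of plate 2 with the middle total, where the log2 ratio was −1.01. Without that library the mean log2 ratio of Slc30a5 to Slc30a10 was 0.46, against 0.22 with it.

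From Slc30a10 down to Slc30a3 the order of neighbours held in all 6 libraries. Slc30a10 led Slc30a7 with a mean log2 ratio of 0.48 ± 0.20 (SD, n = 6), Slc30a7 led Slc30a1 with 0.47 ± 0.28, and Slc30a1 led Slc30a6 with 0.75 ± 0.36, each in 6 of 6 libraries. With a pseudocount of 1 CPM the widest steps were from Slc30a6 to Slc30a8, 1.42 ± 0.36, and from Slc30a8 to Slc30a3, 1.36 ± 0.23 (SD, n = 6). Both depend on the pseudocount: with 5 CPM they were 0.77 and 0.44, and from Slc30a8 to Slc30a3, which is near the floor, the step was 3.10 with 0.1 CPM. Slc30a3 and Slc30a2 could not be ordered, with Slc30a3 the higher in 3 libraries and the lower in 2.

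Plate and, with it, passage are the labels that differ between the libraries, so the plates were compared with edgeR's quasi-likelihood test over 15669 genes, and the members were read from that fit. Depth differed in the same way, with totals of 21399987 to 23994226 on plate 1 and 28083507 to 36488198 on plate 2. An effect of depth cannot be told apart from that of plate. The libraries of plate 2 were above those of plate 1 without overlap in CPM for 7 of the 8 members tested, all but Slc30a5, where 35.2% of all genes tested did the same. CPM is a share of the library total, and this background shows how far the scaling enters. After scaling by TMM, which uses the bulk of the genes, 4 of the 8 were still without overlap (Slc30a1, Slc30a7, Slc30a9 and Slc30a10), against 12.8% of all genes tested.

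By edgeR with Benjamini-Hochberg adjustment over all genes tested, none of the 8 members passed an adjusted p of 0.05, and 29 genes, or 0.185%, did. An unadjusted p under 0.05 with a rise on plate 2 was found for 3 members (Slc30a1, Slc30a9 and Slc30a10), against 8.13% of all genes tested. That number was 1 (Slc30a1) with edgeR on DESeq2 size factors and with DESeq2, where 7.10% and 6.29% of all genes did the same. It was 2 with limma-voom, against 7.82% of all genes, and 4 with edgeR on the total count only, against 29.7%. It was 1 or 2 when any library was left out, against 4.73% to 12.04% of all genes, and Slc30a1 was among them in each of these settings. DESeq2 called 1 member, Slc30a1, while it called 1.00% of genes as higher on plate 2, and limma-voom called none. Slc30a2 and Slc30a3 were removed by the filter on low counts and were not tested. The median log2 fold change of the 8 members was 0.25, and that of all genes tested was 0.03.

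Slc30a1 had the largest plate difference of the family, with a log2 fold change of 0.66 ± 0.16 (SE) and an adjusted p of 0.119 by edgeR. DESeq2 gave 0.64 with an adjusted p of 0.0356. With no filter on low counts edgeR gave 0.68 with an adjusted p of 0.0406, in a fit that called 255 of 27022 genes as higher on plate 2. The edgeR call also depended on a single library: without the library of plate 2 with the middle total, the log2 fold change was 0.63 and the adjusted p 0.0186, in a fit that called 4.20% of all genes as higher on plate 2, although Slc30a1 itself had 16.7 CPM in that library and 16.5 and 17.2 CPM in the other libraries of plate 2. Leaving out any other library gave log2 fold changes between 0.58 and 0.79 with adjusted p between 0.223 and 0.429 by edgeR.

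For Slc30a10 the log2 fold change was 0.37 ± 0.16 (SE) with an adjusted p of 0.294 by edgeR, and 0.20 ± 0.12 with an adjusted p of 0.328 without the library of plate 2 with the middle total. For Slc30a9 it was 0.28 ± 0.12 (SE) with an adjusted p of 0.307 by edgeR. Slc30a8 had 0.39 ± 0.29 (SE), Slc30a7 had 0.22 ± 0.14 and Slc30a6 had 0.21 ± 0.22, with adjusted p from 0.486 to 0.686. Each of these 3 stayed above 0 when any 1 library was left out, but its size depended on single libraries. Slc30a8 had 0.22 without the library of plate 2 with the middle total and 0.57 without that with the highest total. Slc30a7 had 0.13 without the library of plate 2 with the highest total and 0.28 without that with the lowest. Slc30a6 had 0.07 without the library of plate 2 with the highest total. Slc30a6 had 0.12 and 0.14 without replicates 2 and 3 of plate 1 and 0.39 without replicate 1. Slc30a4 with −0.01 ± 0.12 (SE) and Slc30a5 with −0.07 ± 0.36 were nearest to 0. The sign of these last genes depends on the scaling: with the total count alone, they had 0.26 and 0.20. Without the library of plate 2 with the middle total they had −0.03 and 0.19. Slc30a5 also depended on other libraries, with −0.50 without the library of plate 2 with the highest total and 0.10 without replicate 3 of plate 1. Scaling by the total count moved the median of all genes from 0.03 to 0.30 and brought Slc30a1, Slc30a9 and Slc30a10 to 0.93, 0.55 and 0.64, with adjusted p of 0.0273, 0.0349 and 0.0423 by edgeR, where 9.01% of all genes were called as higher on plate 2.

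**Figure D2:**
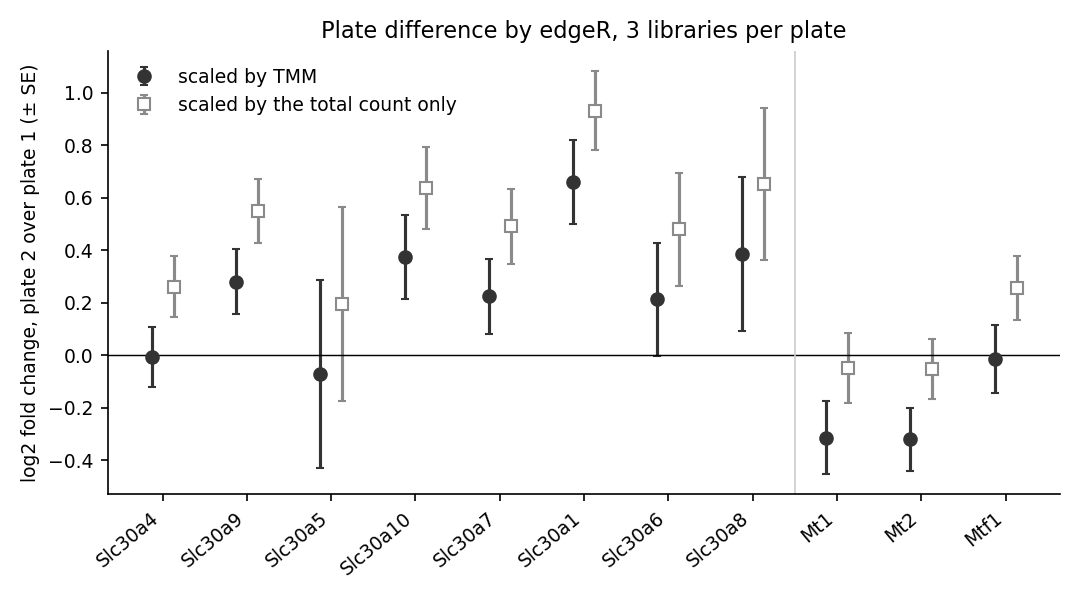
Log2 fold change of plate 2 over plate 1 by edgeR with its SE, for the 8 members tested and, right of the grey line, for Mt1, Mt2 and Mtf1, with 3 libraries per plate. Filled circles are scaled by TMM and open squares by the total count only. Slc30a1 is the highest under both scalings (0.66 and 0.93), and the squares lie above the circles throughout.

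The genes set against the family were those of the rest of zinc handling, 20 in all: 14 Slc39a importers, Mt1 to Mt4, Mtf1 and Tmem163, a zinc efflux protein. Of the 14 Slc39a importers, 8 reached 1 CPM throughout, 6 had a mean of 10 CPM or more, and Slc39a12 had no count in any library. The 3 highest were Slc39a9, a transporter of the Golgi and cell surface, with 43.1 ± 7.40 CPM, Slc39a1, a plasma membrane importer, with 38.1 ± 7.35 CPM, and Slc39a6 with 35.8 ± 7.33 CPM (SD, n = 6). The leading importers were thus at a level close to that of Slc30a4. The 10 members summed to between 132 and 211 CPM per library and the 14 importers to between 151 and 249 CPM. The log2 ratio of the sums, members over importers, was −0.18 ± 0.18 (SD, n = 6), or −0.11 without the library of plate 2 with the middle total. It was above 0 only in the library of plate 2 with the highest total (0.04) and lowest, at −0.50, in that with the middle total.

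The metallothioneins Mt2 and Mt1 were the most abundant transcripts of the list. Mt2 had 217 ± 16.5 CPM and Mt1 173 ± 18.6 CPM (SD, n = 6), while Mt3, the form first found in brain, had 7.28 ± 2.66 CPM, Mt4 had 0.95 ± 0.25 CPM and Mtf1 38.8 ± 4.44 CPM. None of the 15 genes of this list that were tested passed an adjusted p of 0.05 by edgeR, DESeq2 or limma-voom. Mt1 and Mt2 had an unadjusted p under 0.05 by edgeR, in a fit where 7.95% of all genes had one with a fall on plate 2, and by DESeq2 only Mt2 of the list did, against 8.36% of all genes.

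Slc30a1 and both metallothioneins are targets of Mtf1, and their plate differences had opposite signs. Mt1 had 174, 174 and 181 CPM on plate 1, and 159, 203 and 149 CPM on plate 2. Mt2 had 224, 220 and 220 CPM on plate 1, and 209, 240 and 191 CPM on plate 2. In CPM by the total count, the library of plate 2 with the middle total was above all libraries of plate 1 in both genes and the other libraries of plate 2 were below them. After TMM scaling all libraries of plate 2 were below those of plate 1, at most 188 against at least 190.1 CPM for Mt1 and at most 223 against at least 236 CPM for Mt2, as were those of 12.0% of all genes tested. By edgeR the log2 fold change was −0.31 ± 0.14 (SE) for Mt1 and −0.32 ± 0.12 for Mt2, with adjusted p of 0.307 and 0.238.

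Without that library Mt1 and Mt2 fell by 0.50 and 0.46 on the log2 scale, with adjusted p of 0.00258 and 0.00479 by edgeR, whereas Slc30a1 rose by 0.63. In that fit 7.83% of all genes were called as lower on plate 2. With all 6 libraries and the total count as scale, Mt1 and Mt2 were at −0.05, and Mtf1, at −0.01 by TMM, was at 0.26. Ratios to Mt1 and Mt2, chosen after these signs were seen, were also taken within each library, where the scaling enters only through the pseudocount. The log2 ratio of CPM + 1 of Slc30a1 to Mt1 lay between −4.33 and −3.98 on plate 1 and between −3.53 and −3.04 on plate 2. That of Slc30a1 to Mt2 lay between −4.61 and −4.31 on plate 1 and between −3.77 and −3.39 on plate 2. Slc30a1 is itself among the 12.8% of genes whose plates do not overlap after TMM scaling, and no share over all genes was taken for such ratios. Other values were also set against plate by the total count. In such CPM, 35.2% of all genes tested had every library of plate 2 above every library of plate 1. The enteroendocrine markers summed to 5794 to 6693 CPM on plate 1 and 6795 to 7781 CPM on plate 2, and the leukocyte markers to 0.421 to 0.542 and 1.14 to 1.22 CPM. Of the 3 leukocyte markers only 1 had over 3 counts in every library. The sums of the goblet, enterocyte, Paneth, fibroblast and β-cell markers overlapped between the plates. No such sum was taken after TMM scaling. The mitochondrial share of the counts was 3.98% to 4.85% on plate 1 and 4.62% to 7.27% on plate 2, so that the plates overlapped. The part of these values in the plate differences was not tested.

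**Figure D3:**
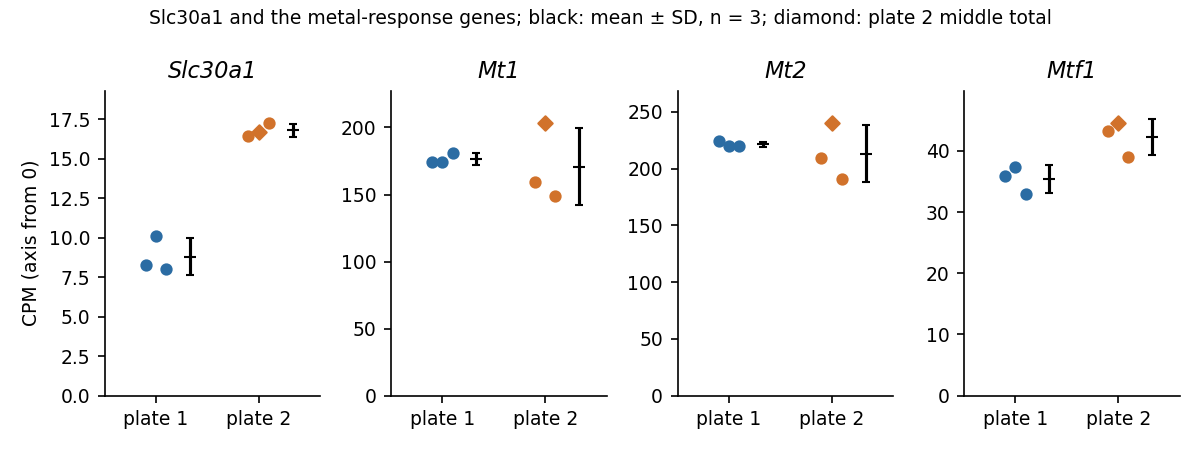
Level in CPM, on axes that start at 0, of Slc30a1 and of Mt1, Mt2 and Mtf1 by plate, with the mean ± SD of 3 libraries in black and the library of plate 2 with the middle total as a diamond. Slc30a1 has 8.04 to 10.1 CPM on plate 1 and 16.5 to 17.2 CPM on plate 2, whereas in Mt1 and Mt2 the diamond lies above plate 1 and the other points of plate 2 lie below it (by TMM scaling all points of plate 2 lie below).

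The library of plate 2 with the middle total was compared with the mean of the other libraries of that plate, as the log2 ratio of CPM + 1. For Slc30a5 this was −1.15, a value below which lay 5.60% of the 8658 genes that averaged 10 CPM or more. For Slc30a10 it was 0.35, higher than for 85.5% of those genes. The other members that reached 1 CPM throughout lay between −0.17 and 0.25, with a median over the 8658 genes of −0.04. The GC content of the last 200 bases of the longest coding transcript was 24.5% for Slc30a5, the lowest of these 8 members, and 44.5% for Slc30a10, the highest. The other 6 lay between 30.0% and 36.5%. The part of GC content in these ratios was not tested.

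**Figure D4:**
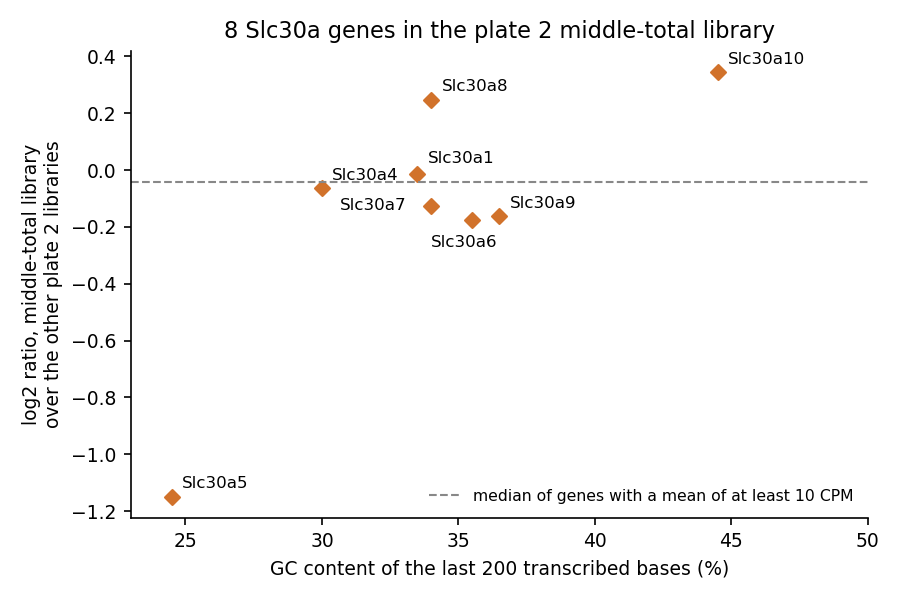
Log2 ratio of CPM + 1 of the library of plate 2 with the middle total over the mean of the other libraries of plate 2, against the GC content of the last 200 transcribed bases in percent, for the 8 members that reached 1 CPM in each. The dashed line is the median of all genes that averaged 10 CPM or more (−0.04). Slc30a5 lies at −1.15 with 24.5% GC and Slc30a10 at 0.35 with 44.5% GC.

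Finally, the genes whose pattern over the 6 libraries was most like that of Slc30a8 and of Slc30a4 were found by Pearson's r of log2(CPM + 1) among the 12360 genes that reached 1 CPM in all 6 libraries. For Slc30a8 these were Nsun5 (r = 0.998), Cep131 (r = 0.996) and Atg7 (r = 0.995), and r without the library of plate 2 with the middle total was between 0.993 and 0.998. For Slc30a4 they included Zfp65 (r = 0.998) and Nsdhl (r = 0.997). Each r rests on 6 libraries that share a plate and a depth in groups of 3, and r was above 0.95 for 105 genes with Slc30a8 and for 301 with Slc30a4. Among the members, r with Slc30a4 ranged from 0.18 for Slc30a5 to 0.92 for Slc30a9, and r with Slc30a8 from −0.31 for Slc30a5 to 0.77 for Slc30a1. Both values for Slc30a5, and the sign of that with Slc30a8, depend on the library of plate 2 with the middle total.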

How the data were processed

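GLUTag cells were sequenced at the 3′ end of mRNA. Per the labels and methods, the authors trimmed reads with Trim Galore 0.6.4, assigned them with Salmon 1.5.1 to GRCm38 (GENCODE M23) with no correction for length and used Tximeta for sums per gene. Deposited are expected counts, neither normalized nor all whole. Here they were divided by the library total (CPM) and rounded for edgeR and DESeq2. Of 54281 identifiers, 54107 were matched to symbols and positions of GENCODE M21 on GRCm38, and promoters were taken from RefSeq (GRCm38.p6). For the plates, edgeR 4.0.16 was used with TMM scaling, its filterByExpr filter and the robust quasi-likelihood fit, at an adjusted p under 0.05. DESeq2 1.42.0, limma-voom 3.58.1, other scalings, filters and pseudocounts and the omission of each library were alternatives. The members and lists were chosen with earlier results of these data known. All 10 members were named, with 20 other zinc genes as a list, of which the 3 highest importers, Mt1, Mt2, Mt3, Mtf1 and any gene past the threshold were to be given with values, and the 3 genes most like Slc30a8 and like the highest member, of which 1 is not reported here. Floors cover counting error only. Each pair of libraries differed by more than sampling noise (chi-square per gene of at least 10.9). Python 3.11.15 and R 4.3.3 were used.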

Additional observations from a re-analysis of the deposited data

How the results depend on the processing

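The mean CPM of the 10 members moved by less than 1 SD under each of the 90 alternative values. These were other scalings and the omission of each library. Omitting 1 of 6 libraries cannot move a mean by 1 SD, so only the other scalings were a check. An order between neighbours that held in 6 libraries also holds, by construction, with another pseudocount, in 1 plate alone or with a library omitted. Log2 ratios moved by more than 1 SD only with another pseudocount, while an omitted library or 1 plate alone cannot move them that far. Slc30a6 to Slc30a8 was 0.77 with 5 CPM, and Slc30a3 to Slc30a2 was 0.50 with 0.1 CPM. Slc30a8 to Slc30a3 was 3.10 with 0.1 CPM and 0.44 with 5 CPM.

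The number of genes called between the plates was 29 and became 584 with DESeq2, 10 with limma-voom, 1482 with the total count only and 545 with no filter, and ranged from 0 to 1911 when 1 library was left out, the highest being without the library of plate 2 with the middle total. The number of members called was 0 and became 1 with DESeq2 and with no filter (Slc30a1 in each) and 3 with the total count only, and ranged from 0 to 1 when 1 library was left out, the 1 being Slc30a1 without the middle library. The log2 fold change of Slc30a4, which was not called, changed sign to 0.26 with the total count only, 0.0108 with no filter and 0.0014 with a filter of 1 CPM in each library, and ranged from −0.0301 to 0.0332 when 1 library was left out. That of Slc30a5 changed sign to 0.20 with the total count only and ranged from −0.50 to 0.19 when 1 library was left out. The cause was not tested. Depth limits Slc30a2 and Slc30a3. No paired analysis was possible because the sample labels give each plate its own replicate numbers, and the numbers in the column names, which restart on plate 2, could not be tied to single samples.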
